A study of Drosophila melanogaster with 8 samples.

Results

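The data compare the ovaries of the 2 control genotypes of a Drosophila melanogaster RNA-seq series, which were chosen by their sample titles: 2 libraries titled control RnpS1 KD and 2 titled control piwi, 4 of the 8 libraries in all. Flies of control RnpS1 KD carried the GAL4 drivers tj-GAL4 and nos-GAL4-VP16 with no interfering RNA named, and flies of control piwi carried nos-GAL4-VP16 alone. The other 4 libraries were 2 of RnpS1 KD, which carried dsRNA-RnpS1 with tj-GAL4 and shRNA-RnpS1 with nos-GAL4-VP16, and 2 of piwi mutant, labelled piwi1/piwi2. All ovaries were taken at 4 to 6 days of age, and all groups shared the nos-GAL4-VP16 driver except the piwi mutant, for which no driver is named. The labels say neither how many animals made up a library nor when it was made. Each control accompanies 1 experimental group, so the genotype of a control, the background of its stock and the making of its libraries cannot be told apart. All 15682 gene rows and all 123 transposon family rows were used, and 10434 genes and 123 families could be tested.

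A fly ovary consists of strings of egg chambers, in which a germline cyst of nurse cells and an oocyte is enclosed by somatic follicle cells. Nurse cells load the oocyte with maternal RNA, and follicle cells make yolk proteins, the vitelline membrane and the chorion of the eggshell. GAL4 is a yeast activator that turns on transgenes behind UAS sites. The nos driver acts in the germline, and the tj driver, from the locus of the transcription factor Traffic jam, acts in somatic cells of the ovary. Piwi proteins and their small RNAs keep transposons silent in both tissues, and fly stocks differ in which transposons they carry and where.

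Gene counts summed to 75113449 and 48470348 in control RnpS1 KD and to 37426999 and 47294459 in control piwi. Levels are counts scaled to a gene total of 1000000 in each library (CPM), where 3 counts correspond to 0.0399 to 0.0802 CPM. Spearman correlations across the tested genes were 0.980 within control RnpS1 KD, 0.989 within control piwi and 0.964 to 0.974 between libraries of different controls. The median gene differed by 0.281 and 0.260 on the log2 scale within the controls, against 0.303 to 0.392 between them. No files were identical, and chi-square per degree of freedom was 269 and 111 within the controls, far above sampling noise.

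Single libraries stood apart in markers of other cells. Gut genes, digestive enzymes such as trypsins, amylases and maltases, summed to 222 and 0.557 CPM in control RnpS1 KD, against 1.47 and 1.54 CPM in control piwi, so replicate 1 of control RnpS1 KD alone was high. Of the 14 gut genes, 12 could be tested and gammaTry was at 0 in all 4 libraries. Muscle genes (15 in the list) summed to 601 and 1459 CPM in control RnpS1 KD and to 964 and 594 CPM in control piwi, and haemocyte genes (10) to 220 and 479 CPM in control RnpS1 KD and to 498 and 218 CPM in control piwi. Fat body genes (10) summed to 85.2 and 153 CPM in control RnpS1 KD and to 74.6 and 56.4 CPM in control piwi. Neuronal genes (7) summed to 8.83 and 15.4 CPM in control RnpS1 KD and to 21.3 and 9.03 CPM in control piwi, and testis genes (13) to 2.34 and 4.56 CPM in control RnpS1 KD and to 2.72 and 3.17 CPM in control piwi. Among the testis genes nht, Mst84Da, Mst98Ca and ProtA were at 0 in all 4. Spermathecal genes (3) summed to 29.4 and 11.6 CPM in control RnpS1 KD and to 19.0 and 24.9 CPM in control piwi. None of these lists had a called member, and their part in the results below was not tested.

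**Figure D1:**
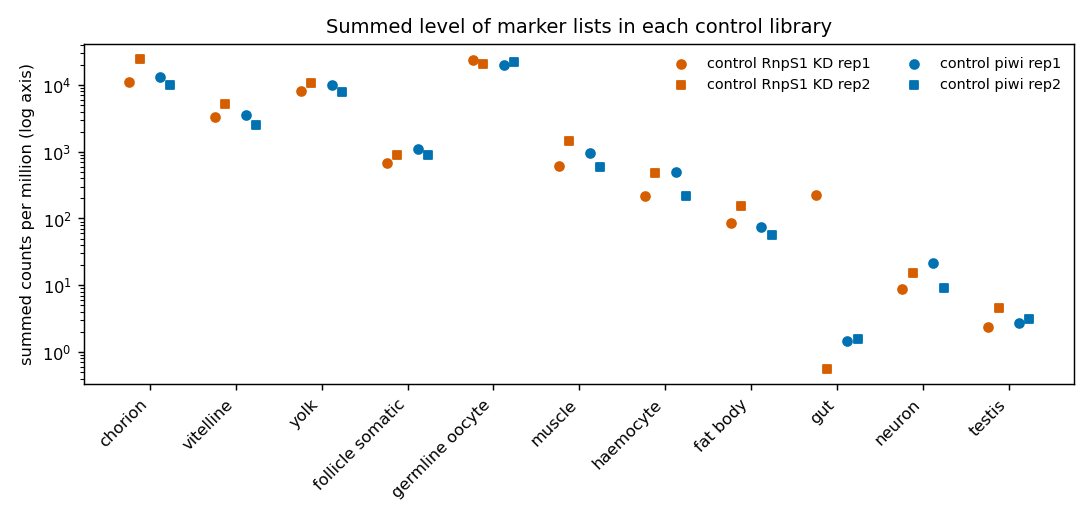
Summed level of each marker list (horizontal axis) in CPM on a log axis, with control RnpS1 KD in orange left of control piwi in blue; circles are replicate 1 and squares replicate 2. The gut list stands at 222 CPM in control RnpS1 KD replicate 1 and at 0.557 to 1.54 CPM in the other 3 libraries, and muscle and haemocyte lists are higher in control RnpS1 KD replicate 2 and control piwi replicate 1.

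Most of the ovary's ordinary transcriptome was common to both controls. A count was present in all 4 libraries for 9942 genes, and 2774 gene rows were at 0 in all 4. At 1 CPM or more in all 4 libraries stood 7255 genes, at 10 CPM or more 6133, at 100 CPM or more 2192 and at 1000 CPM or more 81. Only 155 genes reached 1 CPM in both libraries of control RnpS1 KD and in neither of control piwi, and 78 did the reverse. Among the 100 protein-coding genes with the highest level per length in each control, 89 were the same, and 59 of the 100 in control RnpS1 KD and 62 in control piwi encoded ribosomal proteins.

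The genes that led the level per length were of 4 kinds: ribosome and translation, maternal germline RNA, chaperone and eggshell or yolk. RpL41, a very small protein of the large ribosomal subunit, led with 10104 CPM per kilobase of exon over the 4 libraries. It was followed by dhd, the maternal thioredoxin Deadhead that remodels sperm chromatin after fertilisation, at 4266 CPM per kilobase. The ribosomal genes RpS27A, RpL21, RpL23, RpS20 and RpS3A lay between 1610 and 2706 CPM per kilobase, as means over the 4 libraries. Elongation factor eEF2 had 1908 CPM per kilobase, the chaperone Hsp83 1930 and me31B, a helicase that represses maternal messages, 1630. The chorion genes Cp15, Cp36 and Cp38 were in this group, with 2527, 2526 and 2022 CPM per kilobase, and so was yolk protein gene Yp2 with 1717. Of these 14 genes, RpL41 alone was called between the controls.

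**Figure D2:**
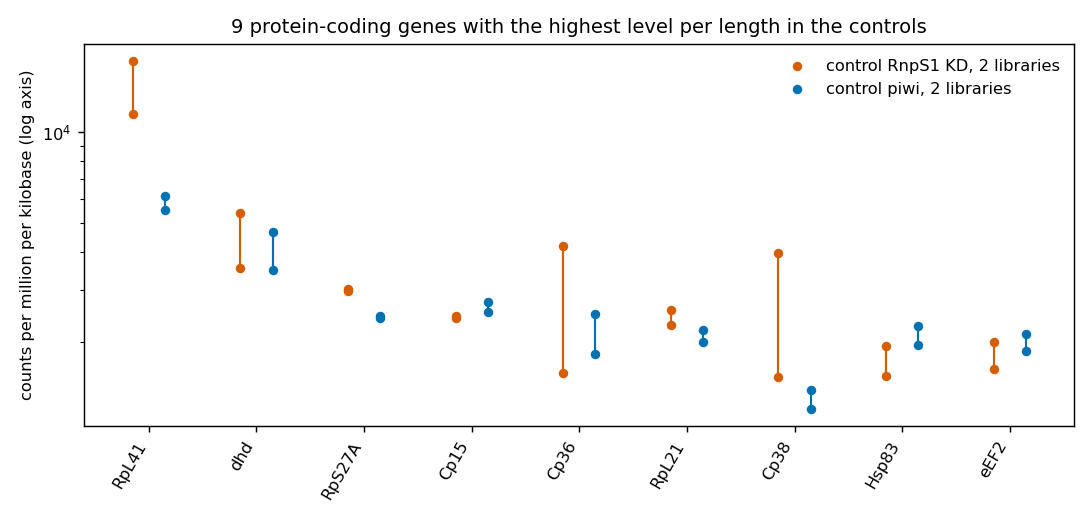
The 9 protein-coding genes with the highest mean level per length over the 4 control libraries (horizontal axis, in falling order), in CPM per kilobase of exon on a log axis; each point is a library, with control RnpS1 KD in orange left of control piwi in blue. RpL41 is apart in the controls, and Cp36 and Cp38 spread most within control RnpS1 KD.

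Most genes of the germline lists were within 2-fold between the controls. A difference was counted as within 2-fold when the whole 95% interval of its log2 fold change (control RnpS1 KD over control piwi, edgeR quasi-likelihood fit) lay between -1 and 1, which held for 5741 of 10434 genes tested (55%). The share was 94.7% among genes at 100 to 1000 CPM, 82.6% at 10 to 100 CPM, 10.6% at 1 to 10 CPM and 0.0373% under 1 CPM, where the median interval reached 2.20 to each side. In the germline and oocyte list 23 of 26 tested genes were within 2-fold, in the cell cycle list 24 of 24, and in the list of germline differentiation 8 of 11. Transcripts of dhd stood at 5150 and 3372 CPM in control RnpS1 KD and at 3332 and 4439 CPM in control piwi, so that each control held a high and a low library (log2 fold change 0.11, SE 0.264). The mitotic cyclin gene CycB had 3915 and 3364 CPM in control RnpS1 KD and 3636 and 3805 CPM in control piwi, which overlapped. The posterior determinant osk had 2139 and 2256 CPM in control RnpS1 KD and 2153 and 1916 CPM in control piwi (0.09, SE 0.110), and the translational regulator orb had 688 and 694 CPM in control RnpS1 KD and 640 and 587 CPM in control piwi. Of the genes in the lists, osk, orb, bam, cuff, Fas3, Hsp68, Hsp26, Dcr-1 and e were named after their values had been seen. The differentiation factor bam had 32.7 and 40.6 CPM in control RnpS1 KD, against 48.5 and 74.0 CPM in control piwi, without overlap but not called (log2 fold change -0.76, SE 0.29, adjusted p = 0.189). The gene cup was listed at 0 in every library, which does not show that its RNA was absent, and vas was not analysed here.

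Both genes targeted in the experiments were within 2-fold between the controls. Transcripts of piwi stood at 414 and 337 CPM in control RnpS1 KD and at 316 and 312 CPM in control piwi (log2 fold change 0.24, 95% interval -0.08 to 0.55). Those of RnpS1 stood at 45 and 39.6 CPM in control RnpS1 KD and at 41.7 and 35.9 CPM in control piwi (0.10, interval -0.70 to 0.91). In the groups in which they were targeted, piwi had 202 and 193 CPM in piwi mutant and RnpS1 had 8.75 and 3.78 CPM in RnpS1 KD. The genes that lend their promoters to the drivers were not called. The gene tj had 40.2 and 71.6 CPM in control RnpS1 KD, against 72.2 and 39.5 CPM in control piwi, a spread as wide within as between the groups (log2 fold change -0.02, interval -1.33 to 1.28). Counts of nanos were 763 and 604 CPM in control RnpS1 KD and 743 and 1001 CPM in control piwi (-0.37, interval -0.85 to 0.11).

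Most genes of the small-RNA pathways and of the exon junction complex, the protein assembly that marks spliced RNA, were within 2-fold. All 9 genes of the ping-pong cycle, all 9 of nuclear silencing, 11 of 12 of primary piRNA production, 9 of 10 of piRNA cluster transcription, all 8 of the exon junction complex and all 6 of nonsense-mediated decay met that bound, against 55% of all genes tested. That share depends on level: among all tested genes it was 82.6% at 10 to 100 CPM and 94.7% at 100 to 1000 CPM. The lists were not compared with genes of like level. The helicase armi, which feeds precursors into piRNA production, had 374 and 371 CPM in control RnpS1 KD and 314 and 345 CPM in control piwi. The cluster factor del had 403 and 345 CPM in control RnpS1 KD, against 254 and 260 CPM in control piwi, and cuff, its partner at clusters, had 11.3 and 10.9 CPM in control RnpS1 KD, against 4.73 and 5.88 CPM in control piwi. Neither passed (log2 fold changes 0.52 and 1.04, adjusted p = 0.088 and 0.065), although their libraries did not overlap. Called members with small differences were mago, a core subunit of the exon junction complex, and nxf2, a partner of Panoramix in silencing. Of mago, 112 and 107 CPM were found in control RnpS1 KD and 67.6 and 71.2 CPM in control piwi (log2 fold change 0.64, SE 0.0775, adjusted p = 0.0125). Of nxf2, 86.9 and 96.3 CPM were found in control RnpS1 KD and 139 and 146 CPM in control piwi (-0.66, SE 0.0981, adjusted p = 0.0218). When 1 of the 8 libraries was left out, mago was called in 4 fits and nxf2 in 2, with adjusted p up to 0.0776 and 0.12 and no change of sign, and both were lost without any 1 of the 4 control libraries. The exons of both share bases with a gene on the other strand.

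Eggshell and yolk genes, which follicle cells express, spread widely within a control. Chorion genes summed to 11204 and 24094 CPM in control RnpS1 KD, against 12994 and 10120 CPM in control piwi, so that replicate 2 of control RnpS1 KD was alone in being high. Only 1 of 14 tested chorion genes, 3 of 12 vitelline membrane genes, 1 of 4 yolk genes and 3 of 19 follicle cell genes were within 2-fold, and none of the eggshell or yolk genes was called. The chorion gene Cp36 had 1772 and 4684 CPM in control RnpS1 KD and 2770 and 2049 CPM in control piwi, with an interval of its log2 fold change from -3.05 to 3.86. Vm26Aa of the vitelline membrane had 301 and 655 CPM in control RnpS1 KD and 313 and 115.2 CPM in control piwi. Yolk protein gene Yp1 had 2422 and 3750 CPM in control RnpS1 KD, against 1889 and 1368 CPM in control piwi (log2 fold change 0.90, interval -0.38 to 2.18). Fas3, an adhesion molecule of follicle cells, had 38.4 and 37.0 CPM in control RnpS1 KD and 57.1 and 34.0 CPM in control piwi. In bulk RNA, fewer cells of a type and less RNA per cell cannot be told apart. The one called follicle gene was N, the Notch receptor, which many other cells also express, with 311 and 329 CPM in control RnpS1 KD, against 544 and 545 CPM in control piwi (-0.79, SE 0.138, adjusted p = 0.0330, called in 2 of the 8 fits without 1 library, adjusted p up to 0.156).

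The RNAs of male dosage compensation, roX1 and roX2, were low, and roX1 passed 1 CPM in 1 control library. The RNA roX1 had 0.759 and 0.805 CPM in control RnpS1 KD and 4.97 and 0.677 CPM in control piwi, where replicate 1 was high, and roX2 had 0.0399 and 0 CPM in control RnpS1 KD and 0.347 and 0.0211 CPM in control piwi. Neither was called (adjusted p = 0.334 and 0.443).

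Between the controls, 402 genes passed edgeR's quasi-likelihood test at a Benjamini-Hochberg adjusted p of 0.05 (3.85% of those tested). Of these, 178 were higher in control RnpS1 KD (1.71%) and 224 lower (2.15%). The log2 fold change was below 1 in size for 178 of them and over 3 for 119, of which 63 were higher and 56 lower. By chromosome arm, 85 of 1794 tested genes were called on 2L, 74 of 1987 on 2R, 83 of 1947 on 3L, 67 of 2421 on 3R, 59 of 1706 on X and 6 of 83 on 4. Genes whose exons share bases with a gene on the other strand, whose reads could not be told apart if counting ignored strand, were called in 131 of 3267 cases, against 244 of 6696 without such a neighbour. DESeq2's Wald test called 1456 genes, including all 402. The count depended on each control library: it was 66 and 80 without control RnpS1 KD replicate 1 or 2, and 44 and 58 without control piwi replicate 1 or 2. Without a piwi mutant library, which takes no part in the contrast but does in the spread and in the filter, it was 114 and 135, and without an RnpS1 KD library 330 and 355. None of the 402 changed sign in these fits.

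**Figure D3:**
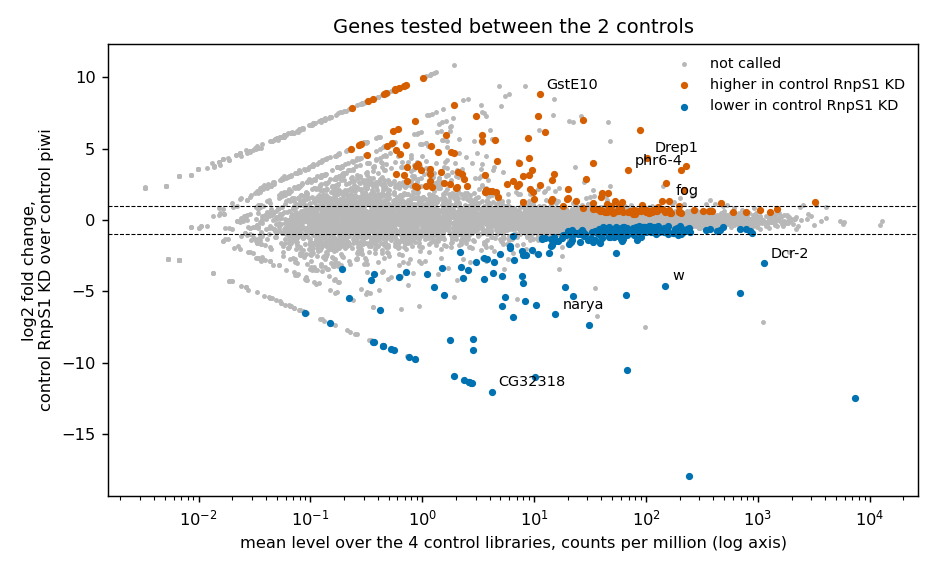
Each point is 1 of 10434 tested genes: horizontal axis, mean level over the 4 control libraries in CPM on a log axis; vertical axis, log2 fold change of control RnpS1 KD over control piwi. Orange points are the 178 genes called higher in control RnpS1 KD and blue points the 224 called lower; dashed lines mark a 2-fold difference.

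Many of the called genes separated all 4 libraries of the RnpS1 pair from all 4 of the piwi pair. This held for 277 of the 402 (68.9%), against 14.7% of all genes tested. The 2 control RnpS1 KD libraries lay outside the range of the other 6 for 162 called genes, against 12.7% of all genes tested, and the 2 control piwi libraries for 224, against 17.9%. Calls were made from the controls alone as a contrast, but all 8 libraries set the spread, so these shares describe the calls and do not test them.

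In all 8 fits that leave out a library, 28 genes were called, 12 higher and 16 lower in control RnpS1 KD, and 26 of them have a symbol. They were singled out after their values had been seen. The lowest adjusted p of the 28 was that of phr6-4, the photolyase that repairs ultraviolet (6-4) lesions, with 120 and 133 CPM in control RnpS1 KD, against 11.4 and 11.1 CPM in control piwi (log2 fold change 3.47, SE 0.128, adjusted p = 0.000236). Its levels were 62.3 and 62.7 CPM in RnpS1 KD and 101 and 82.7 CPM in piwi mutant, so control piwi stood alone. The fatty acid binding protein gene fabp had 376 and 343 CPM in control RnpS1 KD, against 78.0 and 83.9 CPM in control piwi (2.13, SE 0.104, adjusted p = 0.000809). The gene fog, whose secreted product drives apical constriction of cells in the embryo, had 235 and 225 CPM in control RnpS1 KD, against 83.9 and 94.5 CPM in control piwi (1.35, SE 0.0992, adjusted p = 0.00424).

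Of the other genes of this set that were higher in control RnpS1 KD, Drep1, of the family of DNA fragmentation factors, had 218 and 175 CPM in control RnpS1 KD, against 6.49 and 12.3 CPM in control piwi, with 156 and 146 CPM in RnpS1 KD and 95.3 and 87.4 CPM in piwi mutant. The glutathione transferase gene GstE10 had 19.1 and 25.5 CPM in control RnpS1 KD, against 0.0802 and 0.0211 CPM in control piwi (8.79, SE 0.681, adjusted p = 0.00453), and at least 17.8 CPM in every RnpS1 KD and piwi mutant library. The ABC transporter gene l(2)03659 had 29.9 and 35.6 CPM in control RnpS1 KD, against 6.68 and 7.42 CPM in control piwi. GLaz, a lipocalin related to apolipoprotein D, had 11.3 and 11.3 CPM in control RnpS1 KD, against 1.79 and 1.5 CPM in control piwi. CG30054 had 9.27 and 8.38 CPM in control RnpS1 KD, against 0.214 and 0.148 CPM in control piwi, and CG5096 had 20.9 and 13.9 CPM in control RnpS1 KD, against 0.401 and 0.233 CPM in control piwi. CG33995 had 477 counts in control RnpS1 KD against 1 in control piwi, a ratio of CPM of 327 with an exact 95% counting interval of 58.4 to 12943, and it was as low in piwi mutant, at 0.0428 and 0.0785 CPM. Nop10, a protein of the small nucleolar particles that guide pseudouridylation, had 70.5 and 81.1 CPM in control RnpS1 KD, against 30.5 and 28.6 CPM in control piwi (1.34, SE 0.118).

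Lower in control RnpS1 KD in every such fit was w, the ABC transporter of eye pigment precursors that is widely carried as a transgene marker. It had 11.1 and 12.8 CPM in control RnpS1 KD, against 299 and 266 CPM in control piwi (log2 fold change -4.59, SE 0.338, adjusted p = 0.00424). Within the pairs the order was reversed, with 208 and 338 CPM in RnpS1 KD and 7.0 and 4.12 CPM in piwi mutant. Reads of a transgenic copy would be counted as the gene, and the labels name no marker.

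CG32318 had 0 counts in control RnpS1 KD, against 713 counts in control piwi (7.48 and 9.16 CPM), which is at least 347-fold lower in control RnpS1 KD against 3 counts over the group. It was also at 0 in RnpS1 KD and at 4.16 and 4.38 CPM in piwi mutant. The meiotic gene narya, which acts in the making of double-strand breaks, had 0.346 and 0.289 CPM in control RnpS1 KD, against 28.2 and 32.9 CPM in control piwi (-6.59, SE 0.559, adjusted p = 0.00555), and 0.969 to 2.53 CPM in the other 4 libraries. GABA-B-R3, a metabotropic receptor subunit of the nervous system, had 0.253 and 0.268 CPM in control RnpS1 KD, against 7.21 and 14.0 CPM in control piwi, and 5.03 to 7.45 CPM in the other groups, so here control RnpS1 KD stood alone. The dynein heavy chain gene Dhc98D had 0.439 and 0.330 CPM in control RnpS1 KD, against 6.36 and 7.06 CPM in control piwi. It had 23.1 and 30.1 CPM in RnpS1 KD but 0.600 and 0.942 CPM in piwi mutant. The ion cotransporter gene kcc had 16.2 and 18.8 CPM in control RnpS1 KD, against 50.5 and 49.0 CPM in control piwi. Rtca, the RNA cyclase, had 34.8 and 31.5 CPM in control RnpS1 KD, against 78.3 and 101 CPM in control piwi, and brun, a subunit of a vesicle tethering complex, had 52.3 and 59.5 CPM in control RnpS1 KD, against 132 and 117 CPM in control piwi. The remaining genes with symbols, CG4686, CG8891, CG6055, the pseudogene His-Psi:CR33867, sncRNA:254 and 2 spliceosomal RNA genes, had log2 fold changes of -1.19 to -5.98, except snRNA:U1:82Eb with 6.31. Exons of CG33995, GstE10, Nop10, kcc, Rtca, brun, CG4686 and CG8891 share bases with a gene on the other strand, so their values are uncertain if counting ignored strand.

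**Figure D4:**
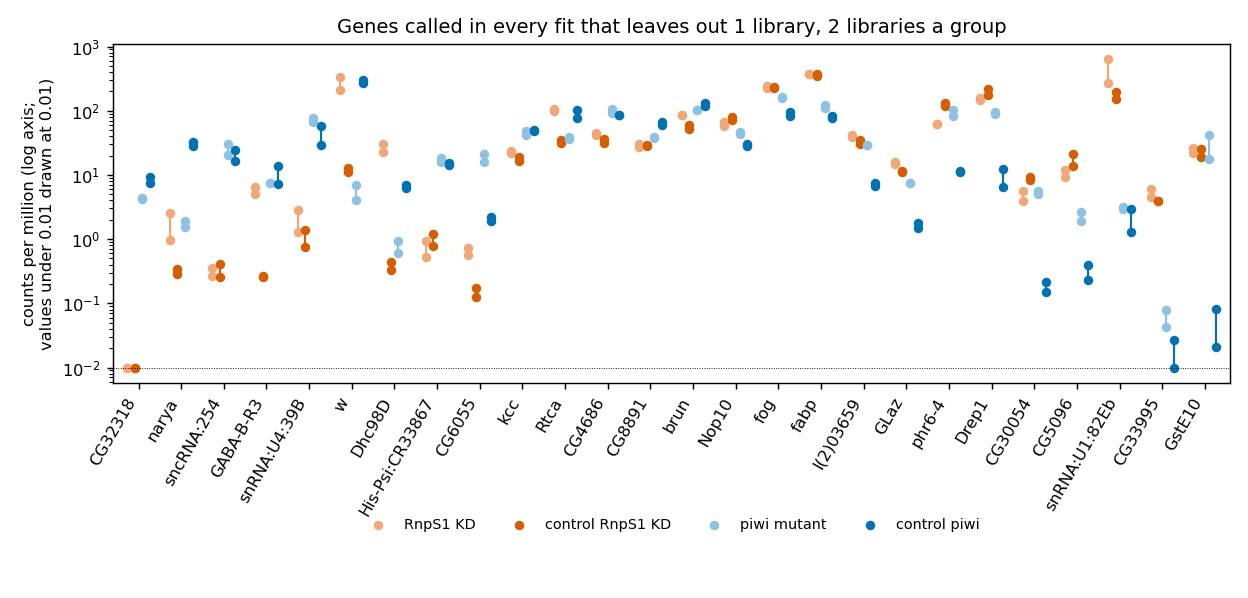
The 26 named genes called in every fit that leaves out 1 library (horizontal axis, in order of fold change), in CPM on a log axis; each point is a library, in the order RnpS1 KD, control RnpS1 KD, piwi mutant and control piwi from left to right within a gene, and values under 0.01 are drawn at 0.01. For w and Rtca the piwi mutant lies with control RnpS1 KD and RnpS1 KD with control piwi, while for phr6-4, fabp and Drep1 control piwi lies below all other libraries.

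The largest fitted differences, among called genes of at least 1 CPM in a control whose libraries did not overlap, were led by identifiers without a symbol and by genes in several copies. Of 381 such genes, 168 were higher and 213 lower in control RnpS1 KD. Of the 12 lowest, 4 had no symbol. The lowest, FBgn0085823, had 0 counts in control RnpS1 KD and in RnpS1 KD, against 895 and 76.3 CPM in control piwi, where replicate 1 was far above replicate 2, and 159 and 243 CPM in piwi mutant. It was called in 4 of the 8 fits without 1 library, with adjusted p up to 0.12. FBgn0085797 had 0.293 and 5.22 CPM in control RnpS1 KD, against 17597 and 12192 CPM in control piwi, with 0.949 and 1.90 CPM in RnpS1 KD and 21311 and 23891 CPM in piwi mutant. FBgn0085797 was called in 7 of these fits, and missed at adjusted p = 0.0535 without control piwi replicate 1. The histone copies among the others were 6, of which 5 were of His3 and 1 was His1:CG33855, each with 0 counts in control RnpS1 KD and RnpS1 KD and with 2.54 to 5.79 CPM in control piwi. Their bounds ran from at least 163-fold to at least 229.5-fold lower. Such copies are nearly identical, and reads placed at several sites were left out, so their values are uncertain. All 117 histone identifiers together summed to 2181 and 1920 CPM in control RnpS1 KD and to 2085 and 2325 CPM in control piwi, and 6 of the 17 that were tested were called, all lower, against 2.15% of all genes. Each of the 5 His3 copies was called in 6 of the 8 fits without 1 library (adjusted p up to 0.0609) and His1:CG33855 in 3 (up to 0.0784).

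The highest in this ranking beside GstE10 and CG33995 were mostly low. Ir7g, of the ionotropic receptor family, had 1.09 and 2.95 CPM in control RnpS1 KD and 0 counts in control piwi, at least 51.4-fold higher. CG17974, CG9400 and CG32199 were also at 0 in control piwi, with bounds of at least 38.4-fold, 36.8-fold and 29.0-fold higher. CG43163 had 60.4 and 47.5 CPM in control RnpS1 KD, against 0.561 and 0.296 CPM in control piwi, and it was at 7.13 and 0.865 CPM in RnpS1 KD. MtnC, a metallothionein that binds metal ions, had 223 counts in control RnpS1 KD against 1 in control piwi, a ratio of 153 with a counting interval of 27.2 to 6065. These calls did not hold in every fit without 1 library: Ir7g was called in 2 of 8, CG17974 in 4, CG9400 in 5, CG32199 in 1, CG43163 in 4 and MtnC in 5, with adjusted p up to 0.133 for CG43163 and up to 0.0913 for MtnC.

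Called small nucleolar RNAs were nearly all higher in control RnpS1 KD, while called small nuclear RNAs went both ways. Most such snoRNA genes guide the modification of ribosomal RNA. Of 169 tested snoRNA genes, 24 were higher and 1 was lower in control RnpS1 KD, against 1.71% and 2.15% of all genes. The median log2 fold change of the 169 was 1.49, against 0.01 for all genes. All 258 together summed to 3788 and 3709 CPM in control RnpS1 KD, against 1416 and 2039 CPM in control piwi, without overlap. They stood at 10372 and 4715 CPM in RnpS1 KD and at 2209 and 3419 CPM in piwi mutant. The gene snoRNA:Psi18S-176 had 197 and 316 CPM in control RnpS1 KD, against 31.8 and 53.8 CPM in control piwi (2.56, SE 0.335, adjusted p = 0.0159, called in 6 of 8 fits without 1 library). The rarer snoRNA:Psi28S-3327c had 14.1 and 21.3 CPM in control RnpS1 KD, against 1.5 and 1.65 CPM in control piwi, and was not called in every such fit. The called snoRNAs snoRNA:Me28S-G3113a and snoRNA:Me18S-U1356a were at 0 in control piwi, at least 33.8-fold and 30.2-fold higher in control RnpS1 KD. Without 1 library, snoRNA:Me28S-G3113a was called in 0 of 8 fits (adjusted p up to 0.15) and snoRNA:Me18S-U1356a in 1 of 8 (up to 0.114).

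Among 226 tested genes with exons of 200 bases or fewer, 26 were higher and 7 lower in control RnpS1 KD, against 1.71% and 2.15% of all genes. Of these, 160 were snoRNA genes, with 24 higher and 0 lower, while among the 66 others 2 were higher and 7 lower. The part of gene length in the result was not tested. Of the 23 tested spliceosomal and other snRNA genes, 3 were higher and 3 lower, beside the same shares of all genes. The U1 gene snRNA:U1:82Eb had 193 and 154 CPM in control RnpS1 KD, against 1.31 and 2.94 CPM in control piwi, and the U4 gene snRNA:U4:39B had 1.41 and 0.763 CPM in control RnpS1 KD, against 29.4 and 57.7 CPM in control piwi. Both splits ran along the pairs, with 631 and 270 CPM of snRNA:U1:82Eb in RnpS1 KD and 2.91 and 3.14 CPM in piwi mutant. Genes of U1 exist in near-identical copies, so the value of a single one is uncertain. The single gene of U12, of the minor spliceosome, had 112 and 137 CPM in control RnpS1 KD, against 55.4 and 61.4 CPM in control piwi (1.08, SE 0.129, adjusted p = 0.0125). It was not called in every fit without 1 library.

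Heat shock genes encode chaperones, and several are induced by stress. Of 13 tested, 5 were called, all lower in control RnpS1 KD, against 2.15% of all genes tested, and the other 8 also had negative fold changes. Hsp70Bb had 0.572 and 0.144 CPM in control RnpS1 KD, against 106 and 16.4 CPM in control piwi (-7.33, SE 1.05, adjusted p = 0.0195), and 133 and 152 CPM in RnpS1 KD. The inducible gene Hsp68 had 2.05 and 2.97 CPM in control RnpS1 KD, against 132 and 3.98 CPM in control piwi, and was not called (adjusted p = 0.114). For both genes replicate 1 of control piwi was far above replicate 2. The small chaperone genes Hsp27 and Hsp23 differed less, with 183 and 177 CPM of Hsp27 in control RnpS1 KD, against 299 and 328 CPM in control piwi, and 4.93 and 8.71 CPM of Hsp23 in control RnpS1 KD, against 23.8 and 20.7 CPM in control piwi. The abundant chaperone genes Hsp83 and Hsp26 were within 2-fold. Hsp70Ab and Hsp70Bc, called as well, are copies with near-identical sequences, so their values and those of Hsp70Bb are uncertain. Of the 8 fits without 1 library, Hsp70Bb was called in 6, Hsp27 in 4, Hsp23 and Hsp70Ab in 3 each and Hsp70Bc in 1, with adjusted p up to 0.0934 for Hsp70Bb and up to 0.115 for Hsp27.

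Of the ribosomal protein genes, 66 of 79 were within 2-fold, 4 were higher and 4 lower in control RnpS1 KD, against 1.71% and 2.15% of all genes tested. RpL41 had 5512 and 3696 CPM in control RnpS1 KD, against 1759 and 1966 CPM in control piwi (1.29, SE 0.248, adjusted p = 0.041). RpL22, RpL37A and RpLP1 were also higher. Lower were RpS15Aa, RpS9, RpL32 and RpS14b, the last with 54.1 and 38.4 CPM in control RnpS1 KD, against 134 and 106 CPM in control piwi. The summed level of all of them was 73645 and 72731 CPM in control RnpS1 KD and 78581 and 69616 CPM in control piwi, which overlapped. All 8 of these calls were lost in at least 1 fit without a control library, and RpL41 was called in 2 of 8, with adjusted p up to 0.192.

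Dcr-2, the Dicer of the small interfering RNA pathway, had 263 and 245 CPM in control RnpS1 KD, against 3182 and 834 CPM in control piwi (log2 fold change -3.01, SE 0.559, adjusted p = 0.0373). The other 4 libraries had 197 to 345 CPM, so both control piwi libraries lay above all others and replicate 1 far above replicate 2. It was called in 2 of the 8 fits without 1 library, with adjusted p up to 0.158 and a log2 fold change of -1.72 to -3.67. The labels name no transgene of Dcr-2, and reads of one would be counted as the gene. Genes of related function were within 2-fold: AGO2 had 302 and 323 CPM in control RnpS1 KD and 320 and 301 CPM in control piwi, and Dcr-1 had 176 and 177 CPM in control RnpS1 KD and 168 and 174 CPM in control piwi.

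Of 12 marker genes of fly stocks, 2 were called higher and 1, w, lower, against 3.85% of all genes called. The pigment gene y had 1.62 and 1.28 CPM in control RnpS1 KD, against 0.294 and 0.254 CPM in control piwi, and ry, xanthine dehydrogenase, had 2.53 and 1.75 CPM in control RnpS1 KD, against 0.347 and 0.106 CPM in control piwi (adjusted p = 0.0324 and 0.0444). Neither was called in any of the 8 fits without 1 library, with adjusted p up to 0.154 and 0.149. The gene e had 11.8 and 10.2 CPM in control RnpS1 KD, against 0.0534 and 0 CPM in control piwi, and was not called (adjusted p = 0.0658).

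Each list of detoxification genes held called members. Of 70 tested cytochrome P450 genes 3 were called, a share near the 3.85% of all genes tested. All were higher in control RnpS1 KD, among them Cyp6a13 with 9.73 and 18.8 CPM in control RnpS1 KD, against 1.87 and 1.52 CPM in control piwi. Cyp6a9 and Cyp6a20 were the others. Of 32 tested glutathione transferase genes, GstE10 was higher and GstD1 was lower, with 377 and 339 CPM in control RnpS1 KD, against 585 and 551 CPM in control piwi (-0.69, SE 0.11). Of 25 tested UDP-glycosyltransferase genes 1 was higher and 1 lower. Over all genes tested, 1.71% were higher and 2.15% lower. Leaving out 1 library, Cyp6a13 was called in 6 of 8 fits and GstD1 in 2, with adjusted p up to 0.0721 and 0.126.

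In other lists, 1 of 20 tested mitochondrial genes, 1 of 16 immune genes and 2 of 26 germline and oocyte genes were called. Of all genes tested, 3.85% were called. The mitochondrial gene mt:ATPase8 had 0.706 and 0.516 CPM in control RnpS1 KD, against 6.44 and 9.32 CPM in control piwi, and it shares bases with mt:ATPase6. Among immune genes Mtk, an antifungal peptide gene, was called with 91 counts in control RnpS1 KD and 0 in control piwi, at least 20.8-fold higher. Neither mt:ATPase8 nor Mtk was called in every fit without 1 library. The maternal RNAs called lower were bcd, the anterior determinant, with 86.8 and 73.4 CPM in control RnpS1 KD, against 135 and 146 CPM in control piwi, and egl, an adaptor of RNA transport, with 212 and 180 CPM in control RnpS1 KD, against 281 and 296 CPM in control piwi. Their log2 fold changes were -0.83 and -0.58 (adjusted p = 0.0218 and 0.049), and they were called in 2 and 1 of the 8 fits without 1 library, with adjusted p up to 0.1 and 0.182. No gene of the ecdysone, Jonah protease, odorant binding or methuselah lists was called. The Jonah proteases of the gut summed to 267 and 0.660 CPM in control RnpS1 KD and to 0.641 and 1.18 CPM in control piwi, as the gut list did.

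Transposon RNA was counted per family, not per copy. Family counts summed to 6443 and 6756 CPM in control RnpS1 KD and to 8803 and 5744 CPM in control piwi, which overlapped. RnpS1 KD had 24035 and 15672 CPM and piwi mutant 121071 and 107180 CPM. LTR retrotransposons took 65.9% and 61.6% of these counts in control RnpS1 KD and 63.4% and 64.8% in control piwi, LINE-like elements 28.5% and 31.8% in control RnpS1 KD and 26.4% and 24.2% in control piwi, and DNA elements 5.10% and 6.00% in control RnpS1 KD and 9.48% and 10.2% in control piwi. Levels are not compared between families, for which no lengths were used. The 8 families with the largest mean shares over these 4 libraries held 55.8% and 50.4% of transposon counts in control RnpS1 KD. In control piwi the same families held 30.0% and 32.8%. They were chosen by these same shares, so the contrast partly follows from the choice and was not tested. By the mean share over the 4 control libraries the largest was roo, with 537 and 618 CPM in control RnpS1 KD and 828 and 668 CPM in control piwi, followed by copia, Doc, blood, gypsy, R2-element, HMS-Beagle and rooA. In control RnpS1 KD alone copia held larger shares than roo, 12.5% and 10.9% beside 8.34% and 9.15%.

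Between the controls, 37 of 123 families were called (30.1%), of which 8 were higher (6.5%) and 29 lower (23.6%) in control RnpS1 KD, and 7 were within 2-fold (5.69%). The median log2 fold change of all families was -0.59, and 94 were negative. When families were scaled to their own counts in place of gene counts, 34 were called, 22 higher and 12 lower, so the excess of lower families depends on the scaling. The 16 families described next kept their direction and their call under that scaling. The count was 4 and 30 without control RnpS1 KD replicate 1 or 2, 7 and 49 without control piwi replicate 1 or 2, and 12 and 18 without piwi mutant replicate 1 or 2. Without an RnpS1 KD library it was 30 and 27. Libraries of the RnpS1 pair were apart from those of the piwi pair in 21 of the 37, against 26% of all families. Calls favour families whose control libraries are apart, so this share describes the calls and does not test them.

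The families hopper, 1731 and Stalker3T were called in all 8 fits without 1 library, all lower in control RnpS1 KD. The DNA transposon hopper had 22.9 and 17.5 CPM in control RnpS1 KD, against 164 and 131 CPM in control piwi (log2 fold change -2.89, SE 0.438, adjusted p = 1.26e-08), and 18.1 and 20.6 CPM in RnpS1 KD and 78.6 and 42.6 CPM in piwi mutant. The LTR element 1731 had 40.5 and 30.5 CPM in control RnpS1 KD, against 243 and 189 CPM in control piwi (-2.62, SE 0.455). Stalker3T had 0.706 and 0.990 CPM in control RnpS1 KD, against 3.93 and 7.72 CPM in control piwi (-2.81, SE 0.486). The other largest decreases were in LTR elements: diver had 37.9 and 34.5 CPM in control RnpS1 KD, against 226 and 99.5 CPM in control piwi, flea had 34.7 and 31.6 CPM in control RnpS1 KD, against 144 and 107 CPM in control piwi, and 412 had 44.4 and 61.4 CPM in control RnpS1 KD, against 206 and 162 CPM in control piwi. In gtwin, which is known from follicle cells, 17.4 and 23.4 CPM stood in control RnpS1 KD, against 79.4 and 43.3 CPM in control piwi. Micropia completed the 8, with 7.18 and 8.56 CPM in control RnpS1 KD, against 34.7 and 16.2 CPM in control piwi. Of these last 5, flea was lost in 1 fit (adjusted p = 0.0558 without control RnpS1 KD replicate 1), diver, 412 and micropia also without control piwi replicate 1 (adjusted p up to 0.174), and gtwin in 4 fits (up to 0.302).

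R2-element, which inserts into the genes of 28S ribosomal RNA, had the largest fold change among the families called higher. It had 652 and 369 CPM in control RnpS1 KD, against 58.8 and 32.1 CPM in control piwi (3.47, SE 0.548, adjusted p = 3.41e-08), and 4677 and 609 CPM in RnpS1 KD and 530 and 532 CPM in piwi mutant. Its share of transposon counts was 10.1% and 5.46% in control RnpS1 KD, against 0.668% and 0.558% in control piwi. The LTR element copia had 803 and 737 CPM in control RnpS1 KD, against 274 and 204 CPM in control piwi (1.67, SE 0.609, adjusted p = 0.0285). It had 10941 and 3986 CPM in RnpS1 KD and 32941 and 29845 CPM in piwi mutant. Springer, gypsy3, Stalker2, Osvaldo, BS4 and the DNA element Bari1 were higher at less than 100 CPM, with log2 fold changes of 1.08 to 1.87. R2-element was called in 6 of 8 fits without 1 library, missing without either control piwi library (adjusted p up to 0.0874), copia in 2 (up to 0.203), gypsy3 in 6 (up to 0.0824), BS4 and Osvaldo in 5 each, springer and Stalker2 in 3 each and Bari1 in 1.

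**Figure D5:**
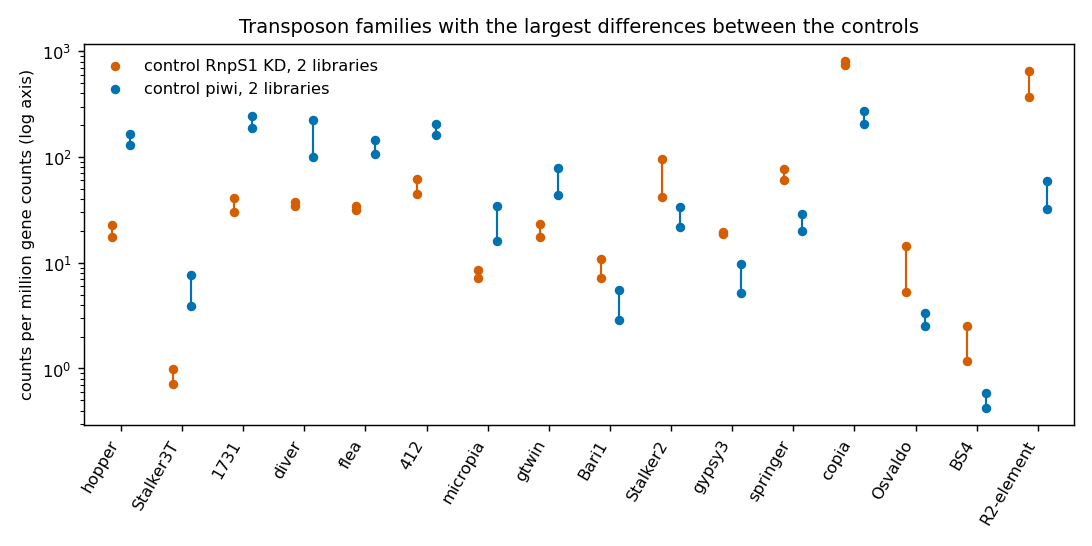
The 16 transposon families with the largest called differences (horizontal axis, from the lowest fold change to the highest), in CPM on a log axis; each point is a library, with control RnpS1 KD in orange left of control piwi in blue. The libraries of the 2 controls do not overlap in any of these families, and hopper and R2-element are the farthest apart among those above 10 CPM.

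Families known for hybrid dysgenesis and at telomeres were not called. P-element had 2.46 and 1.88 CPM in control RnpS1 KD and 4.19 and 2.60 CPM in control piwi. I-element had 21.2 and 30.0 CPM in control RnpS1 KD and 60.2 and 27.2 CPM in control piwi, and hobo had 23.4 and 38.1 CPM in control RnpS1 KD and 51.4 and 33.5 CPM in control piwi. The telomeric element HeT-A had 39.6 and 64.3 CPM in control RnpS1 KD and 59.4 and 49.4 CPM in control piwi, which overlapped (log2 fold change -0.09, interval -1.10 to 0.92). TAHRE had 52.4 and 47.7 CPM in control RnpS1 KD and 44.1 and 30.5 CPM in control piwi. Over all families 6.5% were higher and 23.6% lower. Of 8 families known to be active in follicle cells, Stalker2 was higher and gtwin, Idefix and Quasimodo were lower, while gypsy had 300 and 509 CPM in control RnpS1 KD and 406 and 211 CPM in control piwi, and ZAM 71.9 and 49.0 CPM in control RnpS1 KD and 58.4 and 56.8 CPM in control piwi. Of 11 germline families, copia was higher and diver, Rt1b and jockey were lower, 4 in all, which is near the 30.1% of all families. Idefix, Quasimodo, Rt1b and jockey lost their calls when families were scaled to their own counts.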

How the data were processed

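Per the labels' protocols, ovarian RNA was extracted with Trizol, depleted of ribosomal RNA in 2 rounds and made into strand-specific libraries. For each library the authors deposited raw read counts per gene and per transposon family, not normalized. The builds dm3 and BDGP5 and the tools TopHat2 2.0.9, DESeq, HTSeq 0.5.3p9 and CASAVA (1.8, 1.8.2) are named, per the submitters' processing notes. The deposited gene count files carry the word reverse in their names, which may name a strand setting. The transposon count files carry the word unique, which may name a choice of reads. No label states either setting or the reference behind the transposon counts. Rows that name no gene stayed out of totals. Reads outside genes were 1.91% and 3.29% in control RnpS1 KD, as a share of gene counts plus these and ambiguous reads. In control piwi they were 10.7% in replicate 1, the highest of the 4 control libraries, and 4.45% in replicate 2. Ambiguous reads were 1.19% to 1.50% of the same sum in the 4 control libraries. Alignments to several places were 43.2% to 65.3% of all of these together. A later annotation (BDGP6) gave symbols for 15002 of 15682 identifiers, chromosome arms, exon lengths and overlaps, and no coordinates are printed.

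Genes were kept by filterByExpr and families at 10 counts or more. edgeR 4.0.16 in R 4.3.3 (TMM on gene counts, a term per group, quasi-likelihood test) was fitted on all 8 libraries, with 4 residual degrees of freedom, Benjamini-Hochberg adjustment over all rows of a table and a threshold of 0.05. SE came from the F statistic. DESeq2 1.42.0 was an alternative. Levels are per-library counts, and no value is averaged except where a mean is named. With 2 libraries against 2, an exact permutation test cannot go below 0.333 and was not used. A group at 0 gives a bound against 3 counts over the group, and 1 to 3 counts give a ratio with an exact interval. Both cover counting error only. Nothing says that the libraries came from separate animals, so p-values measure the spread between libraries, which may be technical. The fit was tested on counts simulated for the 10434 genes of this comparison: it found 22 of the 67 genes given a 2-fold change, 39 of 67 at 4-fold and 47 of 66 at 8-fold, and made 7 false calls. The simulated counts had the spread of the fit itself, and all other genes had the same mean share in every library. No simulated library stood apart from the rest, so the false calls do not measure those among the real calls.

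Named were the 12 genes highest and the 12 lowest by fold change among called genes of at least 1 CPM in a control without overlap, 8 families each way, up to 6 called members per list, the 15 coding genes highest per length (1 of them is not reported here), the 3 highest of each ovary list, the 8 largest families, and w, piwi, RnpS1, tj, nanos, roX1 and roX2. Genes called in every fit without 1 library were added after their values were seen. The comparison, its lists and members were chosen with earlier results of these data known.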

Additional observations from a re-analysis of the deposited data

How the results depend on the processing

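Of 402 genes called, counts stayed within 1.5 times with gene totals alone (368), DESeq2's size factors (422), no filter (411) and a CPM filter (523). They were 135 with the 4 control libraries alone, 211 with a replicate block and 1456 by DESeq2's Wald test, and leaving out 1 library gave 44 to 355. The 37 families became 8 with the 4 control libraries alone and 28 with the replicate block, and leaving out 1 library gave 4 to 49. The 5741 genes within 2-fold became 3629 with a 1.5-fold bound and otherwise lay between 5224 and 6066. Replicate numbers were not taken to pair the samples: across genes, deviations of same-numbered libraries correlated by -0.188 between the controls and by -0.151 to 0.171 between the other 5 pairs of groups. With the numbers of control piwi crossed, added after seeing the data, 1011 genes and 53 families were called.

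Of 2348 alternative values of named genes and families, 1901 kept their side of the threshold, 438 lost the call, 9 gained one and no called value changed sign. Only called rows could lose a call, and these were 63 of 113 named genes and 28 of 34 named families. The 1901 thus include values that stayed uncalled. Calls rest on 2 libraries a group. Below 1 CPM intervals are wide, and equal levels could not be shown at this depth.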
